A study of Rattus norvegicus with 9 samples.

Results

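The antigen presentation genes described here are 5 of the 32623 Ensembl rat genes in a table of brain read counts: Cd74 (ENSRNOG00000018735), RT1-Da (ENSRNOG00000032844), B2m (ENSRNOG00000017123), Tap1 (ENSRNOG00000000457) and Psmb8 (ENSRNOG00000000456). They were chosen by identifier, with names supplied alongside those identifiers, and all 5 were abundant enough to be among the 15402 genes tested. Expression was measured by RNA sequencing of rat brain tissue in 3 groups of 3 libraries, given saline, rt-PA or Nano-patrol+NIR at 4.5 h after a modelling step and collected 3 days later. rt-PA is recombinant tissue plasminogen activator, a clot-dissolving protease, and the series title concerns thrombolysis with a lower risk of bleeding. The labels describe neither Nano-patrol+NIR nor the modelling step further. The count columns of the rt-PA libraries are headed uk, so the agent given to that group is uncertain. No group without the modelling step, and none with Nano-patrol or NIR alone, was analysed here. The sources used here do not give strain, sex, age, hemisphere or brain region, nor whether libraries came from separate animals. Brain cell markers could not be checked, because identifiers of other genes were not paired with names.

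Antigen presentation displays peptides on the cell surface for T cells. On the class I side, the immunoproteasome, of which Psmb8 is a catalytic subunit, cuts cytosolic proteins into peptides, Tap1 forms part of the transporter that carries them into the endoplasmic reticulum, and B2m is the light chain of the class I molecule that presents them. On the class II side, RT1-Da encodes an alpha chain of the rat class II molecule, and Cd74, the invariant chain, escorts class II molecules to the compartments where they are loaded. In brain, class II genes are known mainly from microglia, macrophages and infiltrating leukocytes, whereas interferon can raise class I genes in many cell types. In bulk tissue, a change in the number of such cells and a change in RNA per cell cannot be told apart.

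The stretches before the start sites are shown because Cd74 with RT1-Da, and Tap1 with Psmb8, ranked the libraries alike. Whether the sequences bear on that likeness was not tested. RefSeq promoter windows on build GRCr8, running from 250 bases before to 50 bases after each start site, were found for all 5 genes. Windows were searched on both strands for 3 letter patterns chosen after the windows had been read: GAAANNGAA (a core of the interferon-stimulated response element), CCAAT, and TAGCAAC (part of the class II X box). No pattern overlapped another in these windows. Matches are in capitals, each sequence runs 5′ to 3′ along the gene's strand, and bases inside annotated transcripts were left out apart from 1 stretch of 30 bases each in Cd74 and Psmb8. Of the Psmb8 window only the 30 bases around its GAAANNGAA match are shown. Its 232 bases before any annotated transcript start, which hold its CCAAT match, were also left out. The CCAAT match of B2m is not shown either.
Cd74, chr18:56526956-56527070, plus strand: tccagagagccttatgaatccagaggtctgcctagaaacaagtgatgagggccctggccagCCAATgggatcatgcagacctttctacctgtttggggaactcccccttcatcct
Cd74, chr18:56527122-56527151, plus strand: tcagttccacatTAGCAACgtgggcggagt
RT1-Da, chr20:4515165-4515392, plus strand: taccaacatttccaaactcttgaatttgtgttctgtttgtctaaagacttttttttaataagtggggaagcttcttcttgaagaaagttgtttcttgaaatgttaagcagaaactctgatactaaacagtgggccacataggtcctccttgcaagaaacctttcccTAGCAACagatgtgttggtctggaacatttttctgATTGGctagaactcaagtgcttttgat
B2m, chr3:129549080-129549235, plus strand: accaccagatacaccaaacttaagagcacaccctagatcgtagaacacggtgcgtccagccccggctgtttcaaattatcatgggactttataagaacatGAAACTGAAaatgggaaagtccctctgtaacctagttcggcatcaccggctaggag
Tap1, chr20:4668544-4668793, minus strand: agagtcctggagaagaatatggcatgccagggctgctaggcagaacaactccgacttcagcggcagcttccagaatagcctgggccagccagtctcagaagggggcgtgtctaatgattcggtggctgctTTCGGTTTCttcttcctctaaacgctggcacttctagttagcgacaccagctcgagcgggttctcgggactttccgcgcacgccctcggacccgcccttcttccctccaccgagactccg
Psmb8, chr20:4657016-4657045, minus strand: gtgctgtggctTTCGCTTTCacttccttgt

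TAGCAAC stood in both class II side windows, at positions -84 to -78 from the start in RT1-Da and -72 to -66 in Cd74, and in none of the others. Of 33469 RefSeq windows of the same length, 3.58% held it. GAAANNGAA stood in the 3 class I side windows, at -120 to -112 in Tap1, -150 to -142 in B2m and -3 to 6 in Psmb8, and in neither class II side window, against 9.71% of all windows. CCAAT stood in every window but that of Tap1, and in 37.5% of all windows. These are matches of letters, not measured binding. The patterns were chosen after these windows had been read, so setting the matches beside these shares does not test enrichment. In RefSeq, Psmb8 and Tap1 are next to each other, between Tap2 and Psmb9, and 0 other annotated genes overlapped any of the 5.

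Across all tested genes, 1 library of each group stood apart. saline 1, rt-PA 3 and Nano-patrol+NIR 3 correlated with the other libraries of their group at r = 0.8962 to 0.9441 over log2 CPM (read counts scaled to a common library size by TMM), whereas the remaining pair of each group correlated at 0.9836 to 0.9903. As deviations from group means, these 3 libraries went in a similar direction. Their r was 0.38 (saline 1 with Nano-patrol+NIR 3), 0.28 (rt-PA 3 with Nano-patrol+NIR 3) and 0.21 (saline 1 with rt-PA 3). What they share was not tested. Library totals ran from 13059048 to 14992109 counts. Results below are therefore also given without these libraries where they change.

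The class II side genes were highest in a single library, Nano-patrol+NIR 3, and lowest in rt-PA 2. Cd74 was at 41.2, 37.4 and 32.9 CPM in saline 1, 2 and 3, at 38.6, 18.7 and 30.1 CPM in rt-PA 1, 2 and 3, and at 29.9, 24.0 and 90.5 CPM in Nano-patrol+NIR 1, 2 and 3. The level in Nano-patrol+NIR 3 was 3.02 and 3.76 times that in the other libraries of its group, while the 3 saline libraries lay within 1.25 times of each other, and every pair of groups overlapped. RT1-Da was at 9.84, 8.86 and 8.46 CPM in saline 1, 2 and 3, at 8.96, 2.89 and 6.47 CPM in the rt-PA libraries, and at 6.27, 3.11 and 23.2 CPM in the Nano-patrol+NIR libraries. It had the same highest and lowest libraries over a wider range, 8.01 times from lowest to highest against 4.83 times for Cd74. The lowest RT1-Da value rested on 38 counts, with an exact 95% Poisson interval of 26.9 to 52.2 counts, and the highest on 333 counts (298 to 371). These intervals cover counting error only and do not meet, so counting error is small beside the spread. Of all tested genes, 1.66% were more than 2-fold higher in Nano-patrol+NIR 3 than in each other library, Cd74 and RT1-Da among them. In 19.8% of tested genes rt-PA 2 was the lowest of the 9 libraries.

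**Figure D1:**
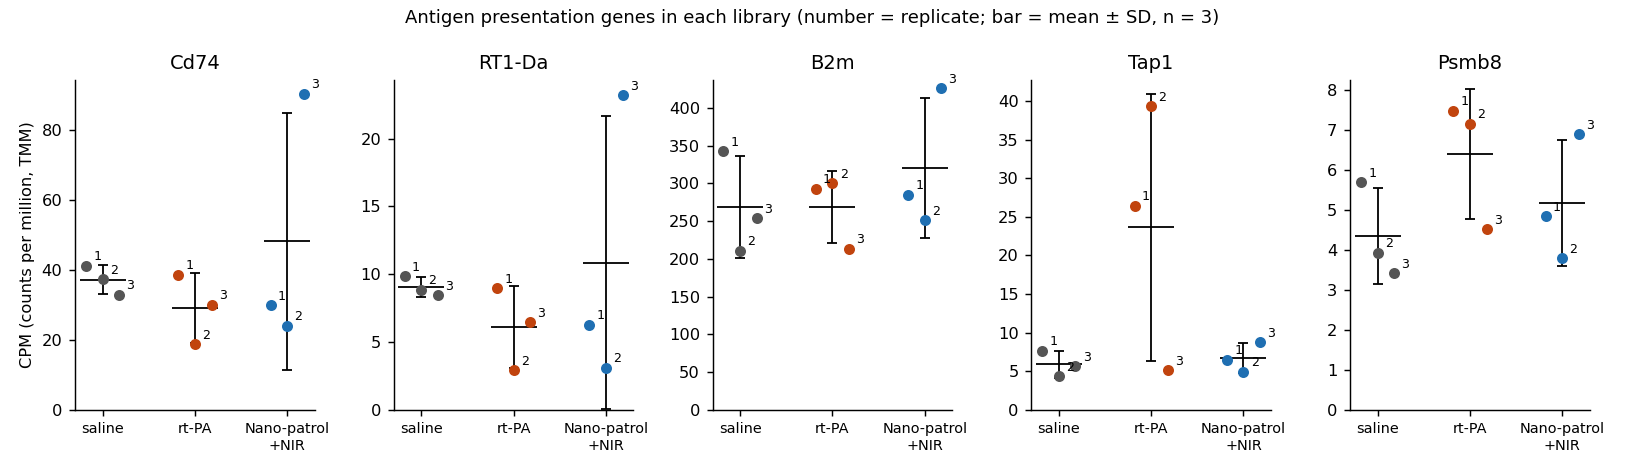
Level of each gene in every library, in CPM with TMM scaling, by treatment. Points are libraries numbered by replicate, and bars are the mean ± SD of 3 libraries. Nano-patrol+NIR 3 is the highest point for Cd74, RT1-Da and B2m, and rt-PA 1 and rt-PA 2 stand above all other libraries for Tap1 and, by a smaller margin, for Psmb8.

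As group means, Cd74 was highest with Nano-patrol+NIR at 48.2 ± 36.8 CPM, then saline at 37.2 ± 4.15 CPM, then rt-PA at 29.1 ± 9.96 CPM (mean ± SD, n = 3 each). RT1-Da followed the same order, with 10.9 ± 10.8, 9.05 ± 0.711 and 6.11 ± 3.05 CPM (mean ± SD, n = 3 each). Neighbouring groups in this order did not differ beyond their spread. Against saline, rt-PA had a log2 fold change of -0.35 for Cd74 (SE 0.48, 95% interval -1.45 to 0.74, edgeR adjusted p = 0.744) and -0.57 for RT1-Da (SE 0.68, -2.11 to 0.97, edgeR adjusted p = 0.702). These sizes rested on single libraries: Cd74 was at -0.59 without rt-PA 1 and -0.11 without rt-PA 2, and RT1-Da at -0.93 and -0.23. Nano-patrol+NIR against saline gave 0.37 for Cd74 (SE 0.48, -0.72 to 1.47) and 0.26 for RT1-Da (SE 0.67, -1.26 to 1.79), each with an edgeR adjusted p of 1.0 after rounding. The sign of the latter pair rested on 1 library, since without Nano-patrol+NIR 3 the log2 fold changes were -0.46 and -0.95. Nano-patrol+NIR against rt-PA gave 0.73 (SE 0.48, -0.37 to 1.82, edgeR adjusted p = 0.547) for Cd74 and 0.83 (SE 0.68, -0.71 to 2.37, edgeR adjusted p = 0.621) for RT1-Da. Without Nano-patrol+NIR 3 these too turned negative, to -0.14 and -0.41. The intervals span changes of 2-fold or more, so the 3 libraries a group do not bound a treatment difference in class II genes closely.

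Cd74 and RT1-Da ranked all 9 libraries in the same order. Over log2 CPM of 9 libraries, Pearson's r was 0.96 (exact permutation p = 2.76e-06, adjusted 2.76e-05 over 10 pairs of genes) and Spearman's rho was 1 (exact permutation p = 5.51e-06, adjusted 5.51e-05), each the smallest p that permutations can give for that measure. Without Nano-patrol+NIR 3 and rt-PA 2, the libraries farthest from the median, r was 0.94 over 7 libraries. Taken as deviations from group means, so that treatment differences were removed, r was 0.98. Among the 15401 other tested genes, RT1-Da was the second most alike to Cd74, and Cd74 the second most alike to RT1-Da. In all, 32 genes had r over 0.9 with Cd74. The gene most alike to Cd74 was ENSRNOG00000015072 (r = 0.99 over 9 libraries), which lay between 0.305 CPM in rt-PA 2 and 4.87 CPM in Nano-patrol+NIR 3. Its next highest level was 1.56 CPM, in saline 1, so this r rests on low counts. Its name is not given by the files.

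**Figure D2:**
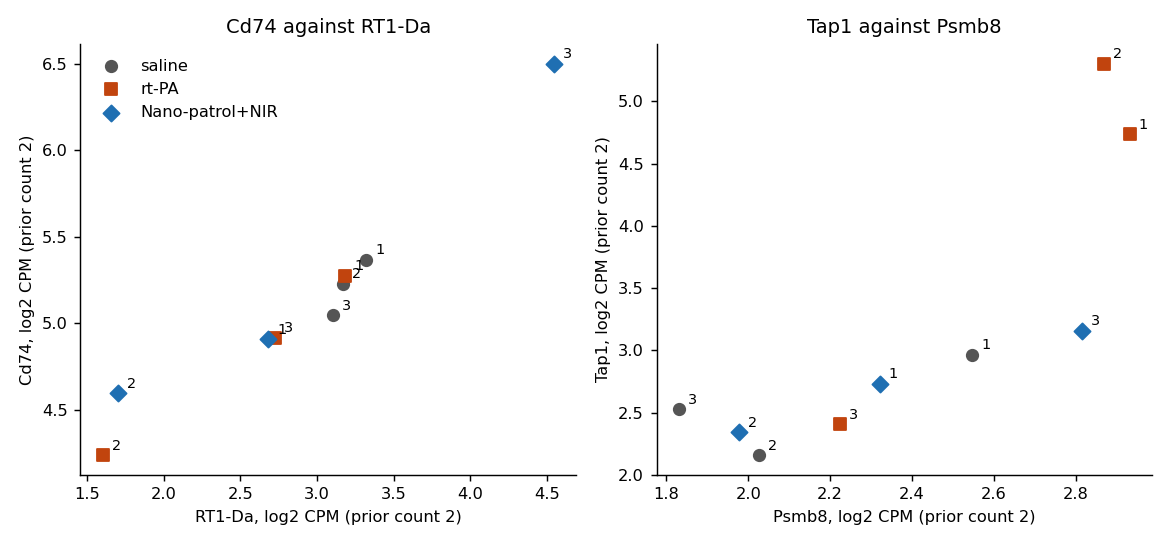
Log2 CPM of Cd74 against RT1-Da and of Tap1 against Psmb8, 1 point per library, numbered by replicate, with shape and colour giving the treatment. Cd74 and RT1-Da lie along a line with the same order of libraries, whereas rt-PA 1 and rt-PA 2 lie far above the other 7 libraries for Tap1.

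RT1-Da varied more steeply than Cd74, so their ratio was not constant. The log2 ratio of Cd74 to RT1-Da was 2.05, 2.06 and 1.94 in saline 1, 2 and 3, 2.09, 2.63 and 2.19 in rt-PA, and 2.23, 2.89 and 1.96 in Nano-patrol+NIR. Every rt-PA library lay above every saline library, a mean difference of 0.29, with an exact two-sided permutation p of 0.1, the smallest that 3 against 3 can give, and 0.788 after adjustment over 9 comparisons of ratios. Ratios were highest in Nano-patrol+NIR 2 and rt-PA 2, the libraries with the fewest RT1-Da counts, 41 and 38.

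B2m had the narrowest range of the 5 genes over the 9 libraries. It was at 342, 211 and 254 CPM in saline 1, 2 and 3, at 293, 300.0 and 214 CPM in rt-PA, and at 285, 251 and 426 CPM in Nano-patrol+NIR. The groups overlapped, with Nano-patrol+NIR 3 highest and saline 2 lowest, 2.02 times apart. Group means were 321 ± 92.8 CPM with Nano-patrol+NIR, 269 ± 67.2 CPM with saline and 269 ± 47.9 CPM with rt-PA (mean ± SD, n = 3 each), without a difference beyond the spread. The log2 difference of rt-PA from saline was 0 to 2 decimals (SE 0.27, 95% interval -0.61 to 0.61, edgeR adjusted p = 0.999). Nano-patrol+NIR differed by 0.25 from saline (SE 0.27, -0.36 to 0.87, edgeR adjusted p = 1.0 after rounding) and by 0.26 from rt-PA (SE 0.27, -0.36 to 0.87, edgeR adjusted p = 0.716). Both intervals stay within a 2-fold change in either direction. Without Nano-patrol+NIR 3 these differences were -0.01 and -0.04.

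Tap1, the peptide transporter subunit, showed the widest range, 9.13 times, and it was high in rt-PA 1 and rt-PA 2 but not in rt-PA 3. Its levels were 26.5, 39.4 and 5.15 CPM in rt-PA 1, 2 and 3, from 343, 517 and 74 counts. They were 7.67, 4.31 and 5.61 CPM in saline 1, 2 and 3, and 6.49, 4.93 and 8.77 CPM in Nano-patrol+NIR 1, 2 and 3. The first pair of rt-PA libraries thus stood 5.14 and 7.65 times above rt-PA 3, which lay among the saline libraries, and the lower of them was 3.02 times the level in the next library, Nano-patrol+NIR 3. In 151 of the tested genes (0.98%) rt-PA 1 and rt-PA 2 were both more than 3-fold above each other library, and in 2663 (17.3%) they were above each other library by any margin. rt-PA 3 is the library of its group that stood apart across all genes, and what set it apart was not tested.

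Mean Tap1 was 23.7 ± 17.3 CPM with rt-PA, 6.73 ± 1.93 CPM with Nano-patrol+NIR and 5.87 ± 1.69 CPM with saline (mean ± SD, n = 3 each). For rt-PA against saline the log2 fold change was 2.01 (SE 0.63, 95% interval 0.59 to 3.43), with an unadjusted p of 0.0111 and an edgeR adjusted p of 0.173 that missed the threshold of 0.05. Against rt-PA, Nano-patrol+NIR had a log2 fold change of -1.81 (SE 0.62, -3.22 to -0.40, edgeR adjusted p = 0.27). Against saline, Nano-patrol+NIR had 0.20 (SE 0.61, -1.20 to 1.59, edgeR adjusted p = 1.0 after rounding). Without rt-PA 3 the first comparison gave 2.51 (SE 0.34, edgeR adjusted p = 0.00482) and the second -2.32 (SE 0.34, edgeR adjusted p = 0.00636), both past the threshold. With that library left out, 13.5% and 13.1% of all tested genes passed as well. Leaving out a library because it stands apart makes the remaining spread too small. Without rt-PA 2 the log2 fold changes of Tap1 were 1.43 and -1.23, with edgeR adjusted p of 0.469 and 0.753.

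**Figure D3:**
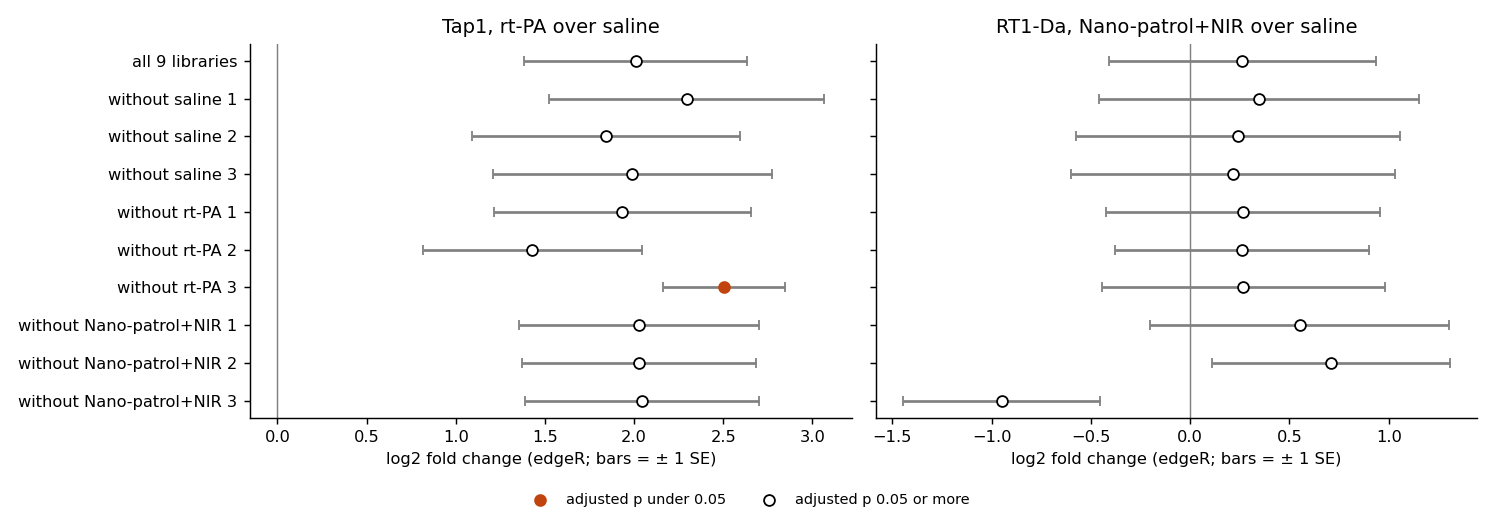
Log2 fold change, ± 1 SE, of Tap1 for rt-PA over saline and of RT1-Da for Nano-patrol+NIR over saline, with all 9 libraries and with each left out in turn. Filled points have an edgeR adjusted p under 0.05. Tap1 stays positive, between 1.43 and 2.51, and passes only without rt-PA 3, where 13.5% of all tested genes passed. RT1-Da turns from 0.26 to -0.95 without Nano-patrol+NIR 3.

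Psmb8, the immunoproteasome subunit whose gene neighbours Tap1, had the same 3 highest libraries as Tap1 over a much narrower range. It was at 7.49, 7.16 and 4.52 CPM in rt-PA 1, 2 and 3, at 5.70, 3.93 and 3.41 CPM in saline, and at 4.85, 3.79 and 6.89 CPM in the Nano-patrol+NIR libraries. Replicates 1 and 2 of rt-PA were only 1.66 and 1.58 times above rt-PA 3, and all groups overlapped. These values rest on 48 to 99 counts, and the lowest, in saline 3, has an exact 95% Poisson interval of 35.4 to 63.6 counts. Means were 6.39 ± 1.63 CPM with rt-PA, 5.18 ± 1.58 CPM with Nano-patrol+NIR and 4.35 ± 1.20 CPM with saline (mean ± SD, n = 3 each). The log2 fold change of rt-PA against saline was 0.55 (SE 0.34, 95% interval -0.21 to 1.32, edgeR adjusted p = 0.44). Nano-patrol+NIR differed by 0.25 from saline (SE 0.34, -0.52 to 1.02, edgeR adjusted p = 1.0 after rounding) and by -0.30 from rt-PA (SE 0.34, -1.07 to 0.46, edgeR adjusted p = 0.733).

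The neighbours Tap1 and Psmb8 kept a similar ratio in 7 libraries and a higher one in rt-PA 1 and rt-PA 2. Their log2 ratio was 1.80, 2.44 and 0.18 in rt-PA 1, 2 and 3, against 0.42, 0.13 and 0.70 in saline and 0.41, 0.37 and 0.34 in Nano-patrol+NIR. The mean difference of rt-PA from saline was 1.06 (exact two-sided permutation p = 0.3, adjusted 0.788 over 9 comparisons of ratios), with rt-PA 3 inside the saline range. This difference was 0.58 without rt-PA 2 and 1.70 without rt-PA 3. A ratio inside a library does not depend on how libraries were scaled. Across libraries the levels of both genes still went together, with r = 0.83 (exact permutation p = 0.000521, adjusted 0.0026 over 10 pairs) and rho = 0.87 (exact permutation p = 0.00451, adjusted 0.0202). Without rt-PA 1 and rt-PA 2, r was 0.86 over 7 libraries. Many genes were more alike to either: of 15401 other genes, Psmb8 ranked 1106th in likeness to Tap1, for which 516 had r over 0.9, and Tap1 ranked 372nd in likeness to Psmb8.

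No pair of a class II with a class I side gene passed the test of correlation across libraries, which does not show that they were unrelated. These 6 pairs had r from -0.20 to 0.59, with adjusted exact permutation p of at least 0.244 over the 10 pairs, and rho from 0.13 to 0.40, with adjusted exact permutation p of at least 0.485. Without Nano-patrol+NIR 3 and rt-PA 2, r was 0.25 to 0.54 in the 6 pairs over 7 libraries. Without Nano-patrol+NIR 3 alone, r was 0.01 for Cd74 with B2m and -0.01 for RT1-Da with B2m. It was then -0.35 to -0.08 for Cd74 and RT1-Da with Tap1 and Psmb8, so these values depended on the libraries left out. As deviations from the group means, r was 0.53 to 0.58 for Cd74 and RT1-Da with B2m and Psmb8, and 0.04 to 0.07 with Tap1. B2m shared its highest library, Nano-patrol+NIR 3, and its second highest, saline 1, with Cd74 and RT1-Da. rt-PA 2 held the highest Tap1 and the lowest Cd74 and RT1-Da of the 9 libraries. The log2 ratio of Cd74 to B2m was accordingly lowest there, at -3.99, and highest in Nano-patrol+NIR 3, at -2.23, with the other 7 libraries between -3.38 and -2.49. None of its 3 comparisons between groups had an exact permutation p under 0.6. Within the class I side, B2m and Tap1 ranked libraries alike (rho = 0.85, exact permutation p = 0.00607, adjusted 0.0202) while r was 0.41 (exact permutation p = 0.276, adjusted 0.459) and 0.49 without Nano-patrol+NIR 3 and saline 2. B2m and Psmb8 had r = 0.69 (exact permutation p = 0.0367, adjusted 0.122), rho = 0.70 (exact permutation p = 0.0433, adjusted 0.108) and, without the same libraries, r = 0.60. Neither likeness was particular to class I genes: by r, Psmb8 ranked 563rd and Tap1 2752nd of 15401 other genes in likeness to B2m. Ranks were taken by r, not by rho. The gene most alike to B2m was ENSRNOG00000008593 (r = 0.94 over 9 libraries), at 17.95 CPM in saline 2 and 30.002 CPM in Nano-patrol+NIR 3, and it too is unnamed in the files.

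**Figure D4:**
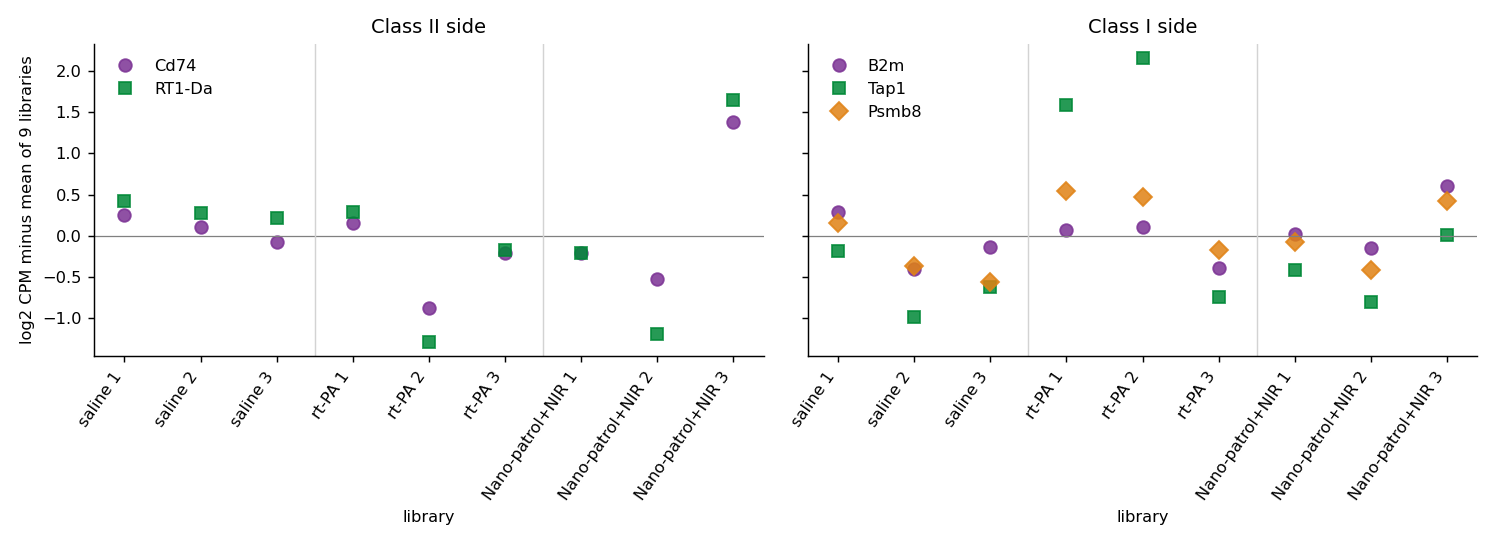
Log2 CPM of each gene minus its own mean over the 9 libraries, for the class II side (Cd74, RT1-Da) and the class I side (B2m, Tap1, Psmb8). The class II genes move together from rt-PA 2, lowest, to Nano-patrol+NIR 3, highest. On the class I side, Tap1 alone departs by more than 1.5 in rt-PA 1 and rt-PA 2.

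By treatment, none of the 5 genes passed the edgeR threshold in any comparison. For rt-PA against saline, 0 of 5 were called (0.00649% of all tested genes), and 1, Tap1, had an unadjusted p under 0.05 (17% of all tested genes). For Nano-patrol+NIR against saline, 0 were called (0.00649%) and 0 had an unadjusted p under 0.05 (5.89%). For Nano-patrol+NIR against rt-PA, 0 were called (0% of all tested genes) and 1, Tap1, had an unadjusted p under 0.05 (13.8%). The test of any difference among the 3 groups called 0 (0.00649%), with Tap1 again at an unadjusted p under 0.05 (14.7%). Libraries of the compared groups did not overlap for 0 of 5 genes in each pairwise comparison, against 19.5%, 14.5% and 17.4% of all tested genes. With 5 genes, a share near or below these backgrounds is no result about them.

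Signs of the log2 fold changes differed between comparisons, though no gene passed the threshold. Of all tested genes, 49.1% were above 0 in rt-PA against saline, 48.1% in Nano-patrol+NIR against saline and 52.2% in Nano-patrol+NIR against rt-PA. B2m for rt-PA against saline was so near 0 that its sign changed in 12 of 18 alternatives. In rt-PA against saline, 2 of 5 genes were above 0 and the median log2 fold change was 0 to 2 decimals, as against -0.01 over all 15402 genes. In Nano-patrol+NIR against saline all 5 lay above 0, with a median of 0.25 against -0.01, but without Nano-patrol+NIR 3 all 5 lay below 0, Tap1 at -0.04 and Psmb8 at -0.01. In Nano-patrol+NIR against rt-PA 3 of 5 were above 0, with a median of 0.26 against 0.02. The first and second of these comparisons share the saline libraries.

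**Figure D5:**
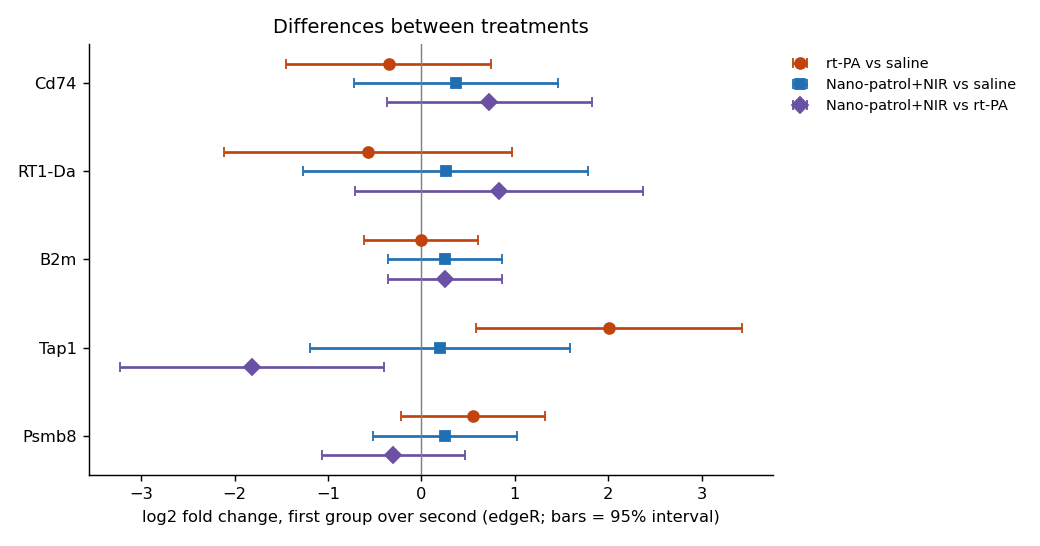
Log2 fold change with 95% interval from edgeR for the 5 genes in the 3 pairwise comparisons, first group over second. Of these 15 intervals, only those of Tap1 in the comparisons that involve rt-PA leave out 0 (2.01 for rt-PA over saline and -1.81 for Nano-patrol+NIR over rt-PA), and neither passed after adjustment over all genes.

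The calls depended on the method and on the libraries that stood apart. DESeq2 called Tap1 for rt-PA against saline (log2 fold change 2.04, adjusted p = 0.0211), where it called 7.11% of all genes tested, and limma-voom called 0 of 5. limma-voom with a weight per library called Tap1 and Psmb8 in both comparisons that involve rt-PA, with higher levels under rt-PA each time, where it called 45.2% and 39.1% of all genes. edgeR without rt-PA 3 called Tap1 alone in both comparisons (13.5% and 13.1% of all genes). With saline 1, rt-PA 3 and also Nano-patrol+NIR 3 left out, edgeR called 3 of 5 for rt-PA against saline (43.8% of all genes), B2m at 0.40, Tap1 at 2.77 and Psmb8 at 1.05 on the log2 scale, with adjusted p of 0.0194, 4.19e-05 and 0.00642. It called 2 of 5, Tap1 at -2.57 and Psmb8 at -0.80, for Nano-patrol+NIR against rt-PA (40.5% of all genes), with adjusted p of 6.6e-05 and 0.0225. Leaving out libraries because they stand apart makes the remaining spread too small. The class II side genes were called in 0 of the alternatives run.

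Spread within groups also set the 5 genes apart from each other. The pooled SD within groups of log2 CPM was 0.96 for RT1-Da, 0.95 for Tap1 and 0.67 for Cd74, above that of 91.6%, 91.3% and 80.4% of tested genes. It was 0.40 for Psmb8 and 0.35 for B2m, near the median over tested genes of 0.36.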

How the data were processed

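RNA was extracted from brain tissue with Trizol, selected by its poly(A) tail and made into cDNA libraries, per the labels' protocols. fastp 0.18.0, Bowtie2 2.2.8, HISAT2 and StringTie 1.3.1 are named without roles, per the submitters' processing notes. The sources used here do not give the genome build, annotation, counting step or strand setting, so reads shared with near-identical or antisense genes cannot be told apart. The authors deposited whole-number read counts per Ensembl gene, not normalized. Groups and replicate numbers came from the titles, and columns were matched through the sample descriptions. Whether libraries came from separate animals is not stated, so p-values cover only the spread of these samples, possibly a technical one. Every pair of libraries in a group differed by more than counting noise (lowest chi-square per degree of freedom 9.11).

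edgeR 4.0.16 in R 4.3.3 was run on these counts: filterByExpr kept 15402 of 32623 genes, totals were TMM-scaled, all 9 libraries were fitted with 1 mean per group, and contrasts were tested by robust quasi-likelihood F tests. p-values were Benjamini-Hochberg adjusted over all tested genes, with a threshold of 0.05. SE was the log2 fold change over the square root of F. CPM are TMM-scaled, and log2 CPM used a prior count of 2. Totals of 13059048 to 14992109 counts gave 38 to 6122 counts per gene and library here. Correlations and ratios were tested by exact two-sided permutation. For correlations all 9 libraries were permuted as if exchangeable, though they came from different treatments and some stood apart across all genes. A small p there does not show a link particular to that pair of genes. The tests were also run on simulated counts with known changes. The outcome is not given here, so that run lends no weight to the results.

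The 5 genes and the lists were chosen with earlier results of these data known. The rule named the 5 genes, up to 5 past the threshold from each list of class I, class II and regulator genes, and the most alike genes. The reference table holds an Ensembl identifier for 0 of 47357 genes, so the lists and cell type markers, written as symbols, were not tested, and member names come from the list that chose them. Promoters are RefSeq sequences on GRCr8. Alternatives were DESeq2 1.42.0, limma-voom with and without library weights (limma 3.58.1), scaling by relative log expression or by library totals, no filter, only the 6 libraries compared, each library left out, saline 1, rt-PA 3 and Nano-patrol+NIR 3 left out together, a replicate block and, for ratios, a prior count of 0.5.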

Additional observations from a re-analysis of the deposited data

How the results depend on the processing

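Counts of calls are listed for rt-PA with saline, then for Nano-patrol+NIR with saline, then for Nano-patrol+NIR with rt-PA, then for the test of all groups. edgeR called 0, 0, 0 and 0 of the 5 genes and 1, 1, 0 and 1 of all genes. DESeq2 called 1, 0, 0 and 1 of the 5 and 1062, 132, 627 and 1090 of all, limma-voom none of the 5 and 0, 0, 1 and 0 of all, and limma-voom with library weights 2, 0, 2 and 2 and 6956, 909, 6027 and 7624. Without the 3 libraries that stand apart the counts were 3, 0, 2 and 3 and 6710, 501, 6195 and 6932. Without each library in turn they were 0 to 1, 0, 0 to 1 and 0 to 1 of the 5, and 0 to 2112, 0 to 35, 0 to 2047 and 1 to 1893 of all, highest without rt-PA 3. Without a filter the test of any group called 3 genes, and the 6 libraries compared gave 0, 3 and 0. The replicate block called 0 of the 5 and 0, 0, 0 and 1 of all. Libraries with the same number deviated from their group means with r of -0.36 to 0.28, above 0.1 in 5 of 9 pairs, and 2 of 9 libraries were most like a library of their own number, so the numbers were not taken to pair samples.

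Of 270 log2 fold changes of the 5 genes under alternatives, 227 kept direction and side of the threshold, 32 changed sign and 12 newly passed it (Tap1, Psmb8 and B2m), 1 of which, B2m for rt-PA against saline without the 3 libraries, also changed sign. Of 85 adjusted p over any of the 3 groups, 7 newly passed. B2m for rt-PA against saline, near 0, was 0.0262 with DESeq2, 0.0168 with limma-voom, 0.28 with weights, 0.0263 with relative log expression scaling, 0.0133 without a filter, 0.40 without the 3 libraries, 0.0263 with the replicate block and -0.14 to 0.25 without 1 library. For Nano-patrol+NIR against saline, RT1-Da was -0.21 with limma-voom, -0.86 with weights, -0.88 without the 3 libraries and -0.15 with the replicate block, and Cd74 was -0.27 with weights and -0.37 without the 3. Without 1 library, RT1-Da ran from -0.95 to 0.71, Cd74 from -0.46 to 0.70, B2m from -0.00752 to 0.48, Tap1 from -0.0433 to 0.45 and Psmb8 from -0.0122 to 0.51, each lowest without Nano-patrol+NIR 3. For Nano-patrol+NIR against rt-PA, Cd74, RT1-Da and B2m were -0.18, -0.53 and -0.0935 with weights and -0.13, -0.38 and -0.19 without the 3. Without 1 library they ran from -0.14 to 1.03, -0.41 to 1.25 and -0.0356 to 0.38. What caused these changes was not tested. All 90 values of the ratios under alternatives moved by less than the spread between replicates. Without 1 library this was bound to hold, because leaving out 1 of 3 cannot move a group mean that far. It does not show that the ratios were stable. Some differences between groups changed sign and others kept it. For Nano-patrol+NIR against rt-PA, Cd74 to B2m went from 0.29 to -0.08 without rt-PA 2. Cd74 to RT1-Da went from 0.055 to -0.21 without Nano-patrol+NIR 2. RT1-Da and Psmb8 had the fewest counts, at 38 to 333 and 48 to 99 per library. For RT1-Da, counting error was nevertheless small beside the spread between libraries.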
